A study of Mus musculus with 8 samples.

Results

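The 50 genes described here encode the ligands, receptors, SMAD proteins, antagonists, latency proteins, corepressors and classical target genes of the bone morphogenetic protein (BMP) and transforming growth factor beta (TGF-beta) pathways. The genes were given as a list of symbols and found among the 49315 genes of the count table, with symbols from GENCODE M21. All 50 had a row, and all 50 were among the 17450 genes that passed the low-count filter. The list comprised 14 ligands, 12 receptors, 8 SMADs, 5 targets, 5 antagonists, 4 latency proteins and 2 corepressors. RNA was sequenced in bulk from femoral shaft bone, with the ends removed and the marrow flushed out, from C57BL6 male mice aged 24 weeks. The 4 control mice were wild-type (WT), and the 4 knockout mice (KO) carried a homozygous deletion of Girk3, labelled Girk3-/-. Girk3, encoded by Kcnj9, is a subunit of potassium channels opened by G proteins. The labels describe neither the allele nor its flanking region, and since they count 4 mice in each group, every library stands for 1 mouse.

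BMP and TGF-beta ligands are secreted dimers that bring together type I and type II serine/threonine kinase receptors. BMP receptors phosphorylate SMAD1, SMAD5 and SMAD9, whereas TGF-beta and activin receptors phosphorylate SMAD2 and SMAD3, and both sets enter the nucleus with SMAD4. In bone, BMPs drive commitment and maturation of osteoblasts, and TGF-beta is stored in the matrix in latent form and released during resorption. The series title links Girk3 loss to maturing osteoblasts and gain of bone mass. The comparison of KO with WT asks which genes of these pathways differ in adult bone.

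No gene of the pathway differed between the genotypes past the threshold of an adjusted p under 0.05 in edgeR. In the quasi-likelihood test of edgeR, adjusted by Benjamini-Hochberg over all 17450 genes, 0 of the 50 members were called, against a background of 0.0115% (2 genes of 17450). An unadjusted p under 0.05 was reached by 1 member, Bmp5, which is 2% of the list against 18.2% of all tested genes. The same gene was lower in KO, a direction and level of p reached by 8.59% of all tested genes. Bmp5 was also the 1 member whose KO and WT libraries did not overlap, a separation found in 13.1% of all tested genes. Fold changes had a positive sign in 23 members and a negative sign in 27, with a median log2 fold change of -0.0052 against -0.0122 over all genes. The median size of the log2 fold change was 0.114 in the members and 0.222 over all genes, while the median standard errors were alike at 0.201 and 0.198. The members were higher in count than the typical gene, with a median level of 25.8 CPM (counts scaled to library size) against 13.6. For 30 members the 95% interval of the fold change lay within 1.5-fold in either direction, and for 45 it lay within 2-fold. Over all genes these numbers were 6347 and 12825 of 17450. The intervals of Bmp3, Bmp5, Bmp7, Id1 and Fst reached beyond 2-fold. In bulk bone, fewer cells of a type and less RNA per cell cannot be told apart, which holds for every level given here.

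**Figure D1:**
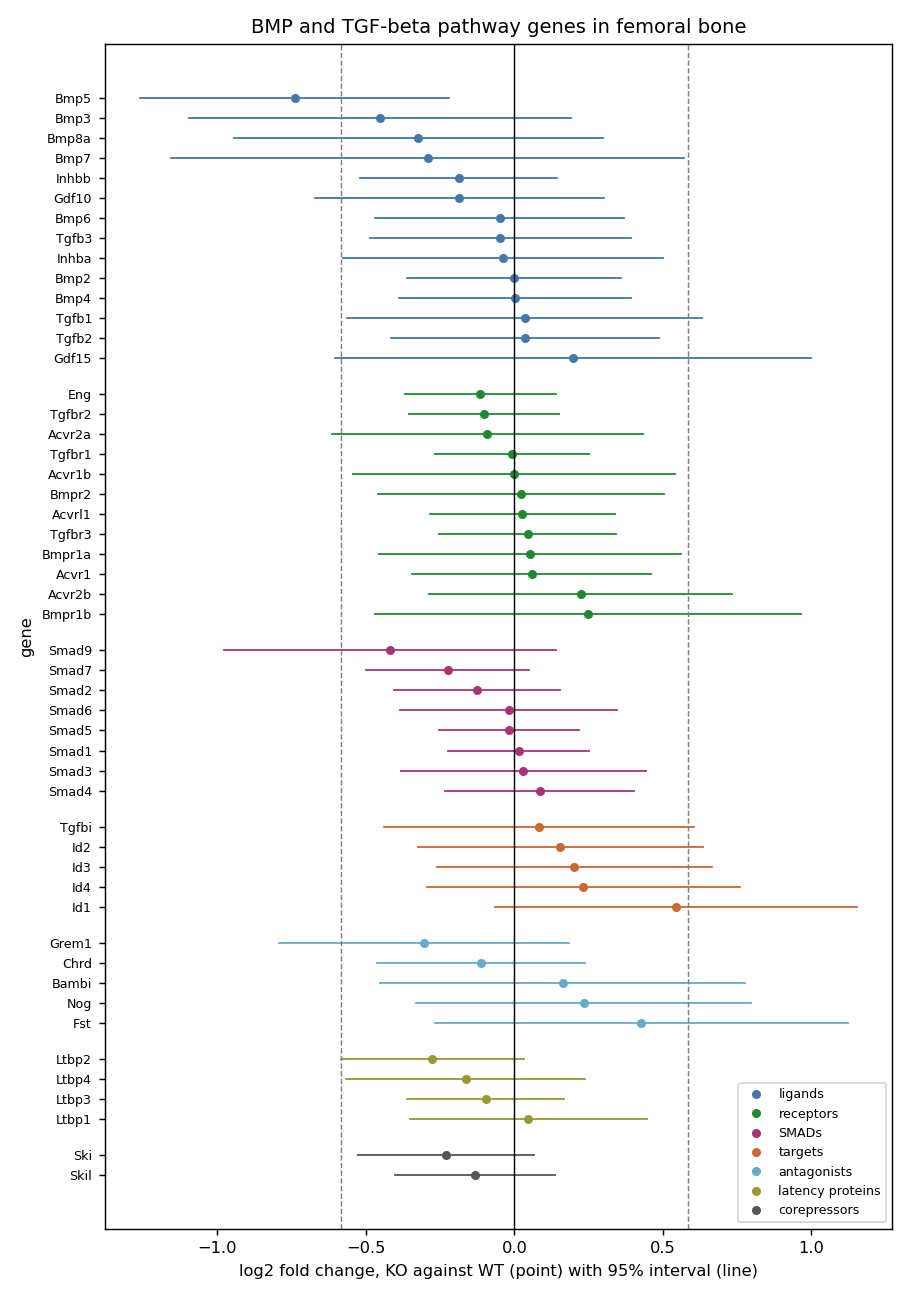
Log2 fold changes (horizontal axis, KO against WT) of the 50 pathway genes by role, each point being the estimate and each line its 95% interval; dashed lines mark 1.5-fold in either direction. Bmp5, at -0.74, is the gene whose interval lies wholly on 1 side of 0.

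The bone libraries held 30087749 to 36553713 counts each. Osteoblast transcripts were abundant, with Col1a1, the gene of the main bone collagen, at 4411 to 11983 CPM, and all 9 osteoblast, 7 osteocyte and 7 osteoclast markers were detected. RNA of other tissues was also present: 15 skeletal muscle markers summed to 8.39% to 15.4% of the counts of a library, and 7 megakaryocyte and platelet markers to 0.0219% to 0.137%. The muscle share was 8.39% to 12.9% in WT and 11.9% to 15.4% in KO. Of the 15 muscle markers, 12 had a positive fold change, with a median of 0.42 on the log2 scale, and 0 were called. WT replicate 4 had the lowest muscle share and the highest megakaryocyte share of the 8 libraries, and KO replicate 4 had the highest muscle share and the lowest megakaryocyte share. Whether these 2 libraries stand apart through dissection or through an exchange of labels was not tested, and the TGF-beta isoforms are given with and without them. For Kcnj9 the WT replicates 1 to 4 held 7, 6, 6 and 23 counts, and the KO replicates 0, 8, 4 and 7. The deleted stretch is not stated in the labels, so these counts check nothing about the genotype. Of the members, 3 lie on the chromosome of Kcnj9, chromosome 1, at 14.3 Mb (Tgfb2), 52.9 Mb (Inhbb) and 112 Mb (Bmpr2) from it.

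Among the ligands, 4 had a positive and 10 a negative fold change. Bmp5 encodes a BMP of the same subfamily as BMP6 and BMP7 and is required for normal skeletal shape in mice. It lies on chromosome 9, 75775364 to 75900310, plus strand (GRCm38, the same build as mm10). In WT replicates 1 to 4 its level was 7.22, 4.92, 6.82 and 4.86 CPM, and in KO replicates 1 to 4 it was 2.51, 3.09, 4.05 and 4.62 CPM. Every KO library was below every WT library, although the highest KO and the lowest WT library differed little. The means were 5.95 ± 1.24 CPM in WT and 3.57 ± 0.95 in KO (SD, 4 mice each). The log2 fold change was -0.74 (SE 0.23, 95% interval -1.26 to -0.22), with an unadjusted edgeR p of 0.0099 and an adjusted p of 0.148. The difference passed the threshold in 3 of 21 alternative analyses. DESeq2 gave -0.74 (adjusted p = 0.0486), with 6.48% of the genes it tested called. In edgeR, a muscle marker score as a covariate gave -1.02 (adjusted p = 0.0258), with 7.40% of all genes called, and a marrow marker score gave -0.77 (adjusted p = 0.0304), with 7.61% of all genes called. Over all 21 alternatives the adjusted p of Bmp5 ranged from 0.0258 to 0.481, and without each library in turn the log2 fold change ranged from -0.88 to -0.61.

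The promoter of Bmp5 is shown because this gene had the smallest p of the list. The window of 300 bases, from 250 before to 50 after the transcription start, is chr9:75775115-75775414 on the plus strand (RefSeq, GRCm38.p6), with 43.3% G and C. Capitals mark CAGACA, a SMAD-binding variant, read here on the other strand.
Bmp5: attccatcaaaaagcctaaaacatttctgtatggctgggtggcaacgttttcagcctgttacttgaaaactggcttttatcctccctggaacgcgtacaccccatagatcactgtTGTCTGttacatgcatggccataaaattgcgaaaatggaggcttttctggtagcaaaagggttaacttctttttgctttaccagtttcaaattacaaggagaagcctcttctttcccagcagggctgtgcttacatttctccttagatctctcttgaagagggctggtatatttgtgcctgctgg
CAGACA was present on either strand in the windows of 7 of the 36 members with an entry (19.4%), against 19.8% of 12158 tested genes and 21% of all 32851 windows. The match is a description of the letters and not a mapped binding site.

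The other BMP ligands overlapped between the genotypes. Bmp3, which encodes an inhibitory BMP abundant in bone and produced by osteoblasts and osteocytes, was the highest of them per kilobase of exon in WT, at 5.41 ± 1.24 CPM per kb, and stood at 3.95 ± 1.46 in KO (SD, 4 mice each). Its CPM was 29.0 to 49.98 in WT and 32.4 to 36.5 in KO replicates 1 to 3, with 13.2 in KO replicate 4. The log2 fold change of Bmp3 was -0.45 (SE 0.29), and KO replicate 4 was also the library with the lowest osteoblast marker share, 0.483% of counts against 0.507% to 1.28% in the others; the part of that share in the Bmp3 level was not tested. Bmp4 and Bmp6, osteogenic ligands, stood at 4.43 ± 0.868 and 4.12 ± 0.603 CPM per kb in WT, and at 4.43 ± 0.648 and 3.98 ± 0.957 in KO. Their log2 fold changes were 0.00 (SE 0.18) for Bmp4 and -0.05 (SE 0.19) for Bmp6. Bmp2, an inducer of bone formation and of fracture repair, had 8.48 ± 1.53 CPM in WT and 8.48 ± 0.83 in KO (SD, 4 mice each). Its 95% interval ran from -0.36 to 0.36 on the log2 scale. The log2 fold change of Bmp8a was -0.32 (SE 0.28), and reads shared with its close relative Bmp8b could have been divided by the counting. Bmp7 was the lowest of the listed BMP ligands per kb, at 0.554 ± 0.269 in WT, and its fold change was the least precise of the list, at -0.29 (SE 0.39).

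**Figure D2:**
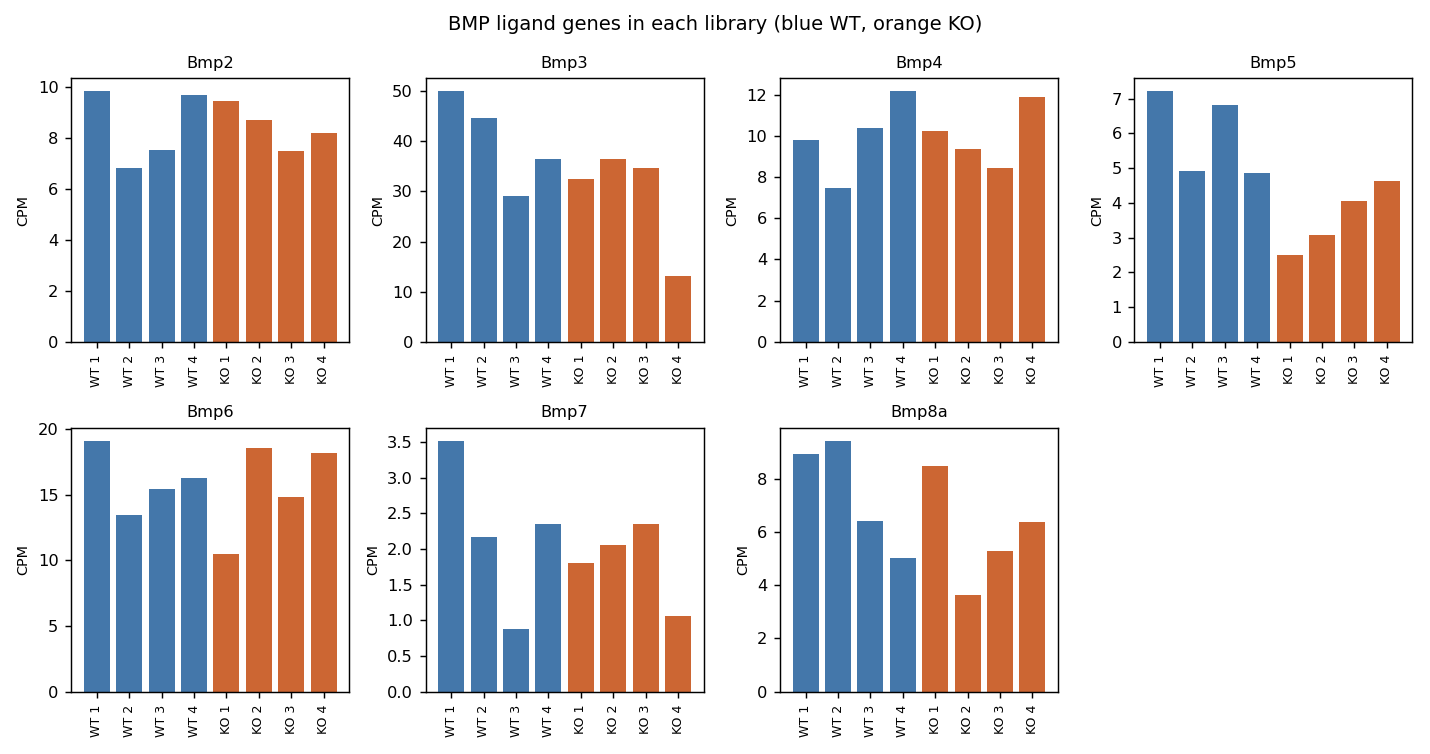
Level of each BMP ligand gene in CPM (vertical axis, a scale per panel) in each of the 8 libraries, blue for WT and orange for KO. The Bmp5 bars of the KO libraries, 2.51 to 4.62 CPM, all lie below those of the WT libraries, and the other 6 genes overlap.

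As shares of the summed per-kb level of the 7 BMP ligands, Bmp3 made up 25.0% ± 3.99 in WT and 21.2% ± 7.64 in KO, Bmp4 20.8% ± 4.74 and 23.9% ± 3.76, and Bmp6 19.2% ± 1.59 and 21.5% ± 5.24 (SD, 4 mice each). Bmp5 made up 6.91% ± 1.41 in WT and 4.80% ± 1.39 in KO, and these shares overlapped between libraries, with 5.71% to 8.83% in WT and 3.30% to 6.35% in KO. The ligand mixture was thus led by the same 3 genes in the mean of each genotype.

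By mean level per kb of exon, the TGF-beta isoforms were the most abundant of the 14 listed ligands in both genotypes. Outside the list, Gdf11 stood at 15.22 CPM per kb in WT and 12.99 in KO, and Mstn at 12.56 and 14.99. Both were above Tgfb2, at 5.91 in WT and 6.06 in KO, and near Tgfb1, at 13.95 and 14.29. Tgfb3 (chromosome 12, 86056745 to 86079041, minus strand) was the highest ligand per kb, at 20.7 ± 3.87 in WT and 20.0 ± 5.38 in KO (SD, 4 mice each). Its CPM was 82.3, 74.9, 70.9 and 51.6 in WT replicates 1 to 4 and 61.0, 58.4, 56.5 and 94.8 in KO replicates 1 to 4. Both extremes of the 8 libraries were the libraries numbered 4, the WT one low and the KO one high. Tgfb1 (chromosome 7, 25687002 to 25705077, plus strand) encodes the isoform stored in bone matrix and in platelets. It stood at 59.9, 67.0, 49.0 and 105.3 CPM in WT and at 88.0, 79.5, 78.2 and 42.5 in KO. Here the order was the opposite, with WT replicate 4 highest and KO replicate 4 lowest. Tgfb2 (chromosome 1, 186622792 to 186705989, minus strand) stood at 37.2, 37.4, 39.1 and 23.3 CPM in WT and at 36.1, 28.9, 28.4 and 46.9 in KO, again with WT replicate 4 lowest and KO replicate 4 highest. The log2 fold changes were 0.03 (SE 0.27) for Tgfb1, 0.04 (SE 0.20) for Tgfb2 and -0.05 (SE 0.20) for Tgfb3, with adjusted p of 0.964, 0.952 and 0.931. Tgfb1 and Tgfb2, and the Id1, Fst and Acvr2a values below, are given in full for patterns seen in their values.

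Without WT replicate 4 and KO replicate 4, the 3 isoforms separated by genotype. The log2 fold change was then 0.48 for Tgfb1 (adjusted p = 0.0734), -0.28 for Tgfb2 (0.193) and -0.38 for Tgfb3 (0.0788), and 2.62% of all genes were called. Over all alternatives run, their adjusted p ranged from 0.0255 to 0.994 for Tgfb1, 0.162 to 0.985 for Tgfb2 and 0.0703 to 0.997 for Tgfb3. In the remaining 6 libraries the KO and WT values did not overlap in 13 members, 26% of the list against 30.2% of all tested genes. Of these, Tgfb1, Id1, Id4 and Ltbp1 were higher in KO, and Bmp5, Tgfb2, Tgfb3, Bmpr2, Acvr2a, Smad7, Smad9, Ltbp3 and Ski were lower. An unadjusted p under 0.05 was reached by 8 members (3 higher, 5 lower), against 23.7% of all genes, and 0 were called. With all libraries but a muscle marker score as a covariate, 3 members were called: Bmp5, Tgfb1 at 0.55 (adjusted p = 0.0255) and Acvr2a at -0.50 (adjusted p = 0.0449, range over alternatives 0.0449 to 0.997). The muscle markers leaned towards KO, so this covariate was not independent of genotype. Marker shares of other cells moved with the isoform levels. The megakaryocyte and platelet markers (7 of 7 detected, with Ppbp and Itga2b giving the most counts) summed to 0.0445%, 0.0538%, 0.0370% and 0.137% of counts in WT and 0.0873%, 0.110%, 0.0764% and 0.0219% in KO. The 4 highest and the 4 lowest libraries for these markers were also the 4 highest and the 4 lowest for Tgfb1. The same split held for the neutrophil markers, at 0.401% to 0.767% of counts in the higher 4 libraries and 0.0667% to 0.338% in the lower 4. It also held for the macrophage markers, at 0.0204% to 0.0342% and 0.0107% to 0.0197%. The erythroid and B cell markers split the libraries otherwise. The part of platelet-forming or other marrow cells in the isoform levels was not tested.

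**Figure D3:**
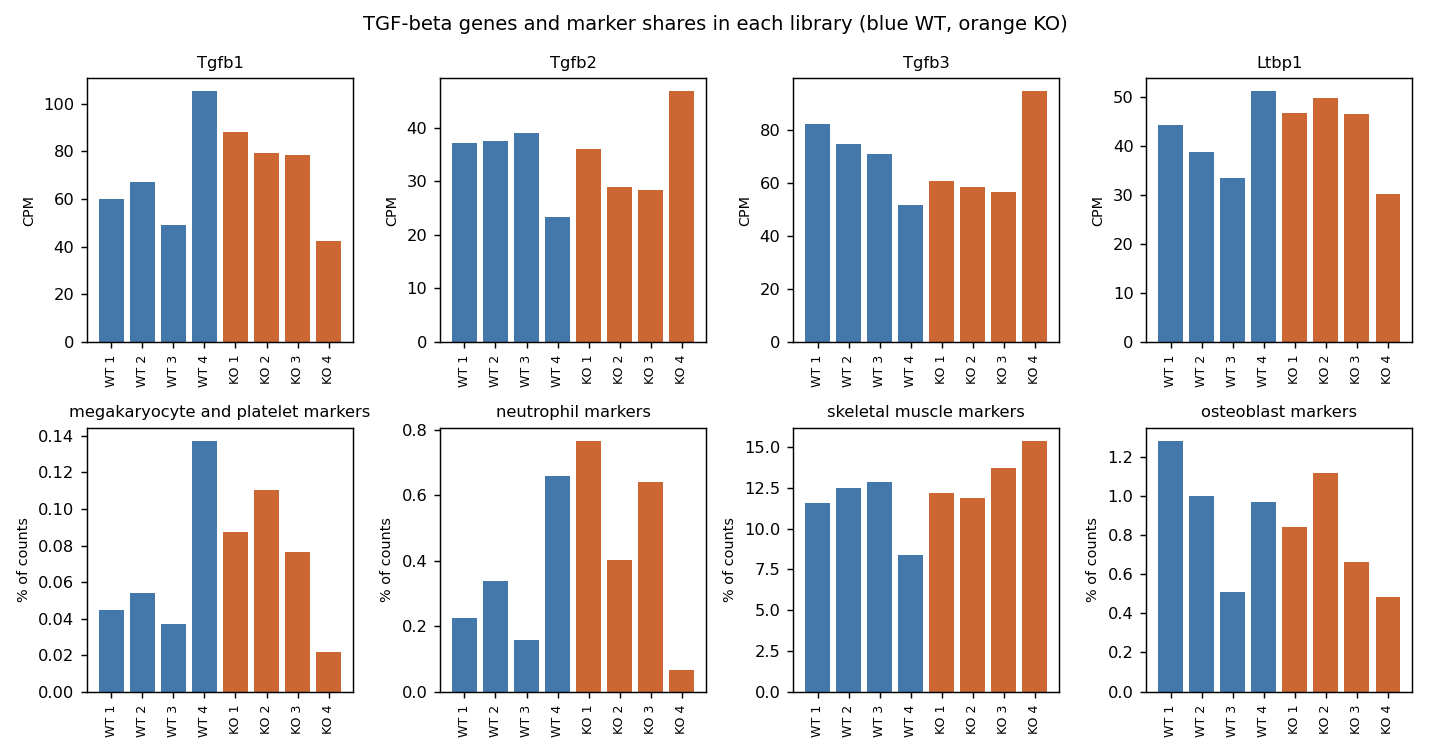
Levels of Tgfb1, Tgfb2, Tgfb3 and Ltbp1 in CPM (upper panels) and summed marker shares in percent of counts (lower panels) in each of the 8 libraries, blue for WT and orange for KO. Tgfb1 and the megakaryocyte and platelet markers are highest in WT 4 and lowest in KO 4, at 105.3 and 42.5 CPM for Tgfb1, and Tgfb2 and Tgfb3 have the opposite order in those 2 libraries.

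The isoform mixture followed the same libraries. Per kb of exon, Tgfb1 made up 27.9%, 31.7%, 26.0% and 52.0% of the summed TGF-beta isoforms in WT replicates 1 to 4 and 41.8%, 41.5%, 41.8% and 18.9% in KO replicates 1 to 4. The mean shares were 34.4% ± 12.0 and 36.0% ± 11.4 (SD, 4 mice each). The share was thus close to constant in 3 KO libraries and departed in replicate 4.

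The listed activin and growth differentiation factor ligand genes, Inhbb, Inhba, Gdf10 and Gdf15, were low. Gdf11 and Mstn, outside the list, were higher, at the levels per kb given with the TGF-beta isoforms. Inhbb, the activin B subunit gene, was at 4.48 ± 0.266 CPM in WT and 3.94 ± 0.268 in KO (SD, 4 mice each), a log2 fold change of -0.19 (SE 0.15, adjusted p = 0.554), and its libraries overlapped. Inhba, the activin A subunit gene, had a log2 fold change of -0.04 (SE 0.24). Gdf10, a BMP3-related ligand, had -0.18 (SE 0.22). Gdf15, a stress-induced circulating factor, had 0.20 (SE 0.36) at about 1 CPM, 0.931 ± 0.361 in WT and 1.07 ± 0.378 in KO.

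Receptor genes had log2 fold changes of -0.11 to 0.25 in all 12 and adjusted p of at least 0.653 in edgeR. For 9 of the 12, the 95% interval lay within 1.5-fold. Eng (chromosome 2, 32646595 to 32682669, plus strand), which encodes the endothelial co-receptor endoglin, was the most abundant per kb, at 20.8 ± 1.21 in WT and 19.2 ± 2.14 in KO (SD, 4 mice each). Its CPM was 90.7, 84.8, 82.9 and 78.9 in WT and 87.5, 71.8, 69.4 and 82.9 in KO, and the groups overlapped. Its log2 fold change was -0.11 (SE 0.11). The endothelial markers summed to 0.0629% to 0.0740% of counts in WT and 0.0603% to 0.0699% in KO, ranges that overlapped. In CPM, the scale used for Eng, they summed to 628 to 703 in WT and 612 to 783 in KO. Of the 10 markers, 7 had a positive fold change and 0 were called. An unadjusted edgeR p under 0.05 was reached by 3 (Emcn, Esam and Cldn5, all higher in KO), against 18.2% of all tested genes. Acvrl1 encodes ALK1, the endothelial type I receptor that pairs with endoglin, and stood at 27.5 to 29.4 CPM in WT and 25.4 to 26.4 in KO replicates 2 to 4, with 38.2 CPM in KO replicate 1.

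The type I receptor genes Bmpr1a, for BMPs, and Tgfbr1, for TGF-beta, stood at 9.17 ± 2.85 and 6.74 ± 0.765 CPM per kb in WT (SD, 4 mice). Their log2 fold changes were 0.05 (SE 0.23) and -0.01 (SE 0.12). The TGF-beta type II receptor gene Tgfbr2 stood at 7.11 ± 0.811 CPM per kb in WT and 6.63 ± 0.477 in KO, giving a log2 fold change of -0.10 (SE 0.11), and the co-receptor gene Tgfbr3, for betaglycan, had 0.05 (SE 0.13). The activin type I receptor gene Acvr1b had 0.00 (SE 0.24), Acvr1, for the receptor mutated in fibrodysplasia ossificans progressiva, 0.06 (SE 0.18), and the type II receptor genes Bmpr2 and Acvr2b 0.02 (SE 0.22) and 0.22 (SE 0.23). Acvr2a, for an activin type II receptor, was at 30.4, 26.6, 30.4 and 16.0 CPM in WT and 17.1, 22.3, 25.1 and 32.5 in KO, with WT replicate 4 lowest and KO replicate 4 highest, and a log2 fold change of -0.09 (SE 0.24). Bmpr1b, a type I receptor of cartilage, was the lowest of the listed receptor genes, at 0.464 ± 0.155 CPM per kb in WT and 0.550 ± 0.193 in KO. Bmpr1b had the largest receptor fold change by size, 0.25, with an SE of 0.32.

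**Figure D4:**
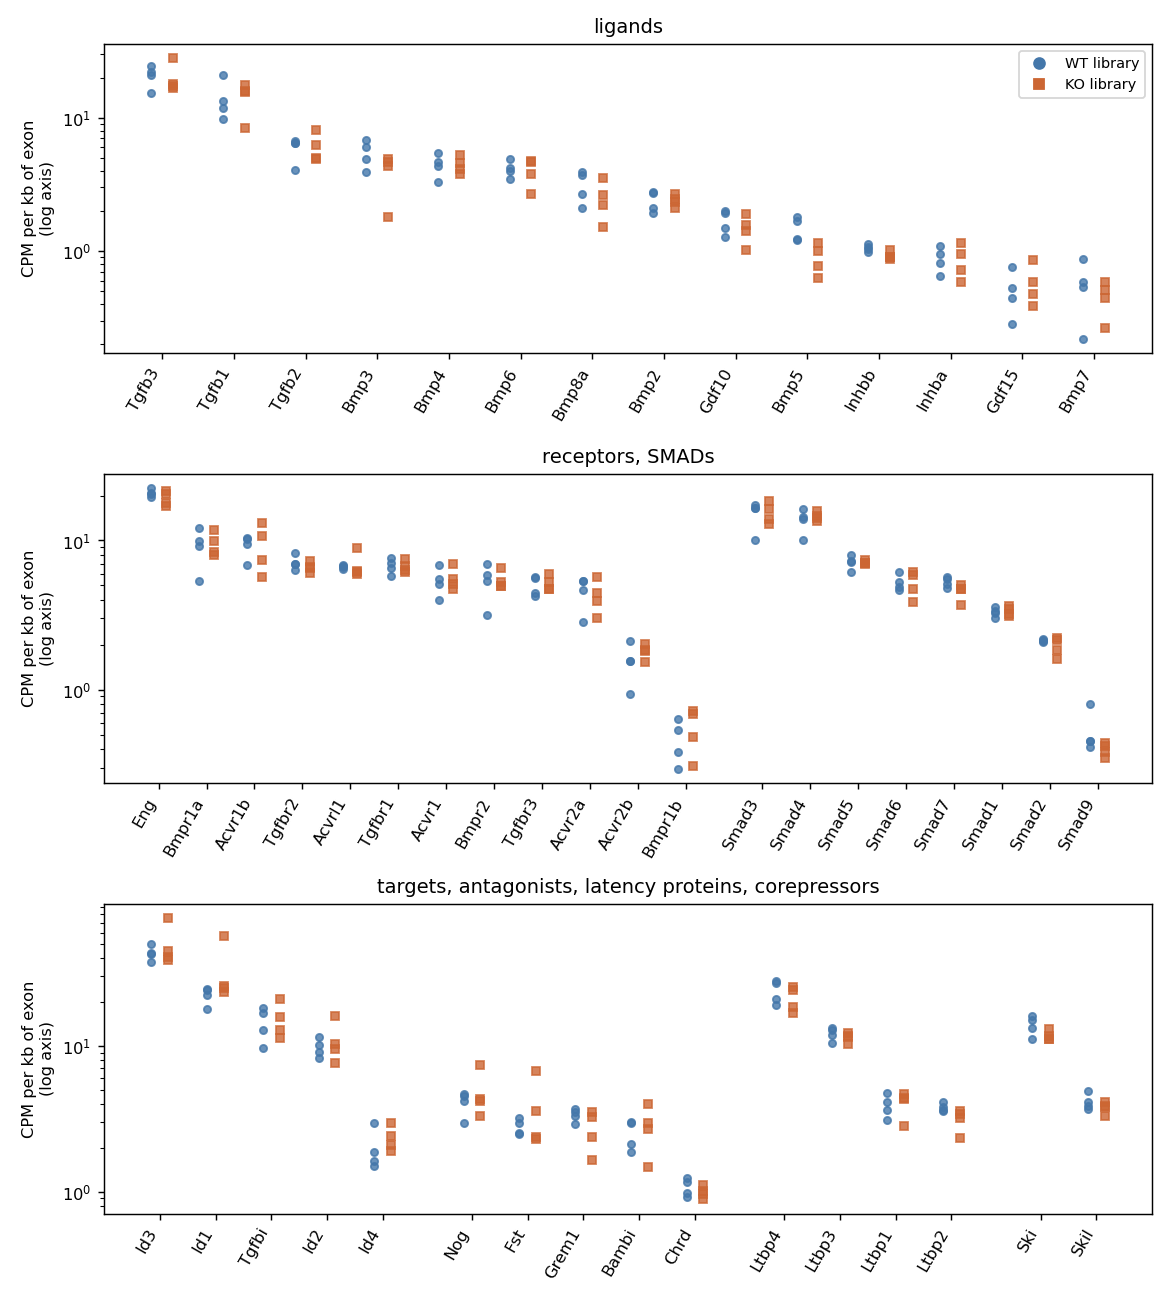
Level per kilobase of exon (CPM per kb, log axis) of the 50 genes in each library, grouped by role and ordered by level; blue circles are WT and orange squares KO. Within a role the genes differ far more than the genotypes, for example Id3 at 43.3 and Id4 at 1.99 CPM per kb in WT.

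Of the 8 SMAD genes, 3 had a positive and 5 a negative fold change, and 7 of the 8 intervals lay within 1.5-fold. Smad3 (chromosome 9, 63646767 to 63757994, minus strand), the TGF-beta and activin effector, was the most abundant per kb, at 15.1 ± 3.37 in WT and 15.4 ± 2.45 in KO (SD, 4 mice each). Its CPM was 91.0, 96.2, 91.2 and 55.8 in WT and 71.7, 77.1, 101.8 and 90.6 in KO. WT replicate 4 was lowest, and the log2 fold change was 0.03 (SE 0.19). The common partner Smad4 followed, at 13.7 ± 2.58 and 14.5 ± 0.915 CPM per kb, with a log2 fold change of 0.09 (SE 0.14). The BMP effectors Smad5 and Smad1 had the narrowest intervals of the list, with log2 fold changes of -0.02 (95% interval -0.25 to 0.22) and 0.01 (-0.22 to 0.25). Smad2, the other TGF-beta effector, had -0.13 (SE 0.13). Of the inhibitory SMADs, Smad7 stood at 23.9 ± 1.76 CPM in WT and 20.5 ± 2.61 in KO, giving a log2 fold change of -0.23 (SE 0.12, adjusted p = 0.367), and Smad6 had -0.02 (SE 0.16). Smad9, the least abundant, had -0.42 (SE 0.25), with 4.31 CPM in WT replicate 1 and 1.86 to 2.44 CPM in the other 7 libraries.

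Smad6, which feeds back on BMP signalling, was the member whose promoter window held the palindromic SMAD-binding element GTCTAGAC, shown in capitals. The window is chr9:64022010-64022309 on the minus strand (RefSeq, GRCm38.p6), with 66.3% G and C, written in the direction of transcription.
Smad6: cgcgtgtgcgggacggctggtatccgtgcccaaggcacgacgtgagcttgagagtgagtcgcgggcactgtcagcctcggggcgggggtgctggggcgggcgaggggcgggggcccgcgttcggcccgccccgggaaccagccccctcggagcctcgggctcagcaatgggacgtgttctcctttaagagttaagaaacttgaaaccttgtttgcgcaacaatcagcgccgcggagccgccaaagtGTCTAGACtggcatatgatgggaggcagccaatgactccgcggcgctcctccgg
The element was found in 1 of the 36 members with an entry, against 0.280% of 12158 tested genes and 0.213% of all windows. This match too is a description of the letters and not a mapped binding site. None of the 3 motifs searched contains another of them.

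The corepressor genes Ski and Skil, whose proteins bind SMAD complexes and block their transcriptional activity, both had negative fold changes. Ski (chromosome 4, 155154075 to 155222592, minus strand) stood at 89.7, 83.5, 74.3 and 61.6 CPM in WT and 65.4, 62.5, 62.3 and 73.0 in KO. WT replicate 4 was the lowest of all 8 libraries, and the groups overlapped through it. Per kb, Ski was at 13.9 ± 2.19 in WT and 11.8 ± 0.901 in KO (SD, 4 mice each). For Ski the log2 fold change was -0.23 (SE 0.13, adjusted p = 0.394), and its unadjusted p was under 0.05 without WT replicate 4. Skil had -0.13 (SE 0.12).

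The latent TGF-beta binding proteins tether latent TGF-beta to the matrix. For their genes, all 4 intervals lay within 1.5-fold. Ltbp4 (chromosome 7, 27305136 to 27337692, minus strand) led per kb, at 23.8 ± 4.40 in WT and 21.2 ± 4.10 in KO (SD, 4 mice each). Its CPM was 181.5, 136.8, 173.7 and 122.6 in WT and 109.1, 156.5, 120.4 and 162.9 in KO, and the groups overlapped. Its log2 fold change was -0.16 (SE 0.18). Ltbp3, whose loss causes skeletal defects in mice, had -0.10 (SE 0.12). Ltbp2, which binds fibrillin rather than TGF-beta, was at 29.1 to 34.0 CPM in WT and 19.2 to 29.5 in KO, giving a log2 fold change of -0.28 (SE 0.14, adjusted p = 0.329). Ltbp1 had 0.05 (SE 0.18), with WT replicate 4 highest at 51.2 CPM and KO replicate 4 lowest at 30.2 CPM, as for Tgfb1. As shares of the 4 genes per kb, Ltbp4 made up 54.2% ± 3.65 in WT and 53.0% ± 5.31 in KO, and Ltbp3 27.9% ± 1.38 and 28.7% ± 2.24.

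Of the antagonists, 3 had a positive and 2 a negative fold change. Nog (chromosome 11, 89300638 to 89302332, minus strand), whose product noggin sequesters BMPs, was the most abundant of the listed antagonists per kb, at 4.09 ± 0.772 in WT and 4.81 ± 1.79 in KO (SD, 4 mice each). Its CPM was 7.10, 7.66, 7.93 and 5.04 in WT and 12.6, 5.62, 7.13 and 7.28 in KO. KO replicate 1 stood above all other libraries, and the log2 fold change was 0.23 (SE 0.25). Fst (chromosome 13, 114452290 to 114458951, minus strand), whose product follistatin binds activins, was at 13.5, 11.6, 14.7 and 11.5 CPM in WT and 31.0, 10.9, 10.6 and 16.4 in KO. The log2 fold change of Fst was 0.43 (SE 0.31, adjusted p = 0.512) with all libraries and -0.02 without KO replicate 1. Bambi, for a decoy receptor, had 0.16 (SE 0.28), with KO replicate 1 highest at 20.4 CPM. Grem1, for the BMP antagonist gremlin, had -0.30 (SE 0.22), with WT replicate 4 highest at 15.3 CPM and KO replicate 4 lowest at 6.86 CPM. Chrd, for chordin, had -0.11 (SE 0.16).

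With all libraries and TMM scaling, the 5 target genes had positive fold changes, of 0.08 to 0.54 on the log2 scale. Tgfbi was at -0.02 with library totals in place of TMM and at -0.07 without WT replicate 3, and without KO replicate 1 Tgfbi (-0.11), Id2 (-0.10) and Id3 (-0.06) were negative. Of these 5, 0 passed the test in edgeR, with an unadjusted p under 0.05 in 0 of them and adjusted p of at least 0.329. The Id genes encode inhibitors of basic helix-loop-helix transcription factors and are direct transcriptional targets of BMP SMADs. Id3 (chromosome 4, 136143497 to 136145755, plus strand) was the most abundant member of the whole list per kb, at 43.3 ± 5.05 in WT and 49.9 ± 17.1 in KO (SD, 4 mice each). Its CPM was 67.6, 76.0, 77.3 and 89.5 in WT and 134.6, 80.8, 72.7 and 69.1 in KO. KO replicate 1 was the highest, and the other 3 KO libraries lay inside the WT range. Id1 (chromosome 2, 152736251 to 152737410, plus strand) had the largest positive fold change of the list. Its CPM was 20.9, 28.7, 28.2 and 26.0 in WT and 65.6, 28.8, 29.8 and 27.1 in KO. The mean was 25.9 ± 3.58 CPM in WT and 37.8 ± 18.6 in KO, and the log2 fold change of 0.54 (SE 0.27, adjusted p = 0.329) became 0.14 (adjusted p = 0.675) without KO replicate 1. Id2 was highest in KO replicate 1, at 39.3 CPM against 18.5 to 28.2 CPM elsewhere, with a log2 fold change of 0.15 (SE 0.22). Id4 had 0.23 (SE 0.24), with 11.5 CPM both in WT replicate 4 and in KO replicate 1. Tgfbi, a matrix protein gene induced by TGF-beta, had 0.08 (SE 0.23).

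Promoter windows of Id2, Id3 and Id4 are shown because the Id genes are direct BMP targets and had their highest or joint highest level in KO replicate 1. The windows are chr12:25096043-25096342 on the minus strand for Id2, chr4:136143572-136143871 on the plus strand for Id3 and chr13:48260866-48261165 on the plus strand for Id4 (RefSeq, GRCm38.p6), with 63.3%, 60% and 73.3% G and C. Capitals mark GGCGCC, a sequence bound by BMP SMADs.
Id2: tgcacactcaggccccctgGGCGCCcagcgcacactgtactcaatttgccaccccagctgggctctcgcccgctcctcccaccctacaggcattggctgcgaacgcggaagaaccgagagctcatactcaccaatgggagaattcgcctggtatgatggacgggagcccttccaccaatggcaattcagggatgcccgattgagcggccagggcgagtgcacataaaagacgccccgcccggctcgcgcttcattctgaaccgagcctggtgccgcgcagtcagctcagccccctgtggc
Id3: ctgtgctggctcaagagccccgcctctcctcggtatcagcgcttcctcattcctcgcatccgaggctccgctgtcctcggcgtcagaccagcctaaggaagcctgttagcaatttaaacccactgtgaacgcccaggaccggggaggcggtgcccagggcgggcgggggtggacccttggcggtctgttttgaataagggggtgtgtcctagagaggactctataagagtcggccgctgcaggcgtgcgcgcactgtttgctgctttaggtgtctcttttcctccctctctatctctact
Id4: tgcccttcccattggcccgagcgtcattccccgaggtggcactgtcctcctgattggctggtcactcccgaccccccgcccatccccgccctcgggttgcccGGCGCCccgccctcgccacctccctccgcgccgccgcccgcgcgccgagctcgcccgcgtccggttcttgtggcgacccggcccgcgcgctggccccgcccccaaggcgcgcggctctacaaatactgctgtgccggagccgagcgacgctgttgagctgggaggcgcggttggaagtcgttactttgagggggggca
Id2 and Id4 held GGCGCC and these letters are not in the Id3 window. GGCGCC, which reads the same on both strands, was present in the windows of 14 of the 36 members with an entry (38.9%), against 22.8% of 12158 tested genes and 11.9% of all windows. Besides Id2 and Id4 these were Acvr1b, Bmpr1a, Bmpr2, Chrd, Gdf10, Grem1, Ltbp4, Ski, Smad5, Smad9, Tgfbi and Tgfbr1. Members and tested genes were counted per gene over any of their windows, so the share of all windows is in another unit. GGCGCC holds only G and C, and the shares were not matched for GC content. The match describes the letters and is not a mapped binding site.

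KO replicate 1 was the highest of the 8 libraries in 12 members, 24% of the list against 19.6% of all tested genes. These were Inhba, Acvrl1, Smad1, Smad2, Id1, Id2, Id3, Id4, Tgfbi, Nog, Fst and Bambi. In 4 members its level was more than 1.5 times that of the next highest library, 8% of the list against 1.82% of all tested genes. They were Id1 at 2.21 times, Fst at 1.90 times, Nog at 1.58 times and Id3 at 1.503 times. Without that library the log2 fold changes of Nog and Id3 were both -0.06. KO replicate 1 also had the highest adipocyte marker share, 0.0557% of counts against 0.0243% to 0.0348% in the other libraries, the highest tendon and fibroblast share, 0.0578% against 0.0220% to 0.0476%, and the highest neutrophil share, 0.767% against 0.0667% to 0.659%. The part of these shares in the Id, Fst and Nog levels was not tested.

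**Figure D5:**
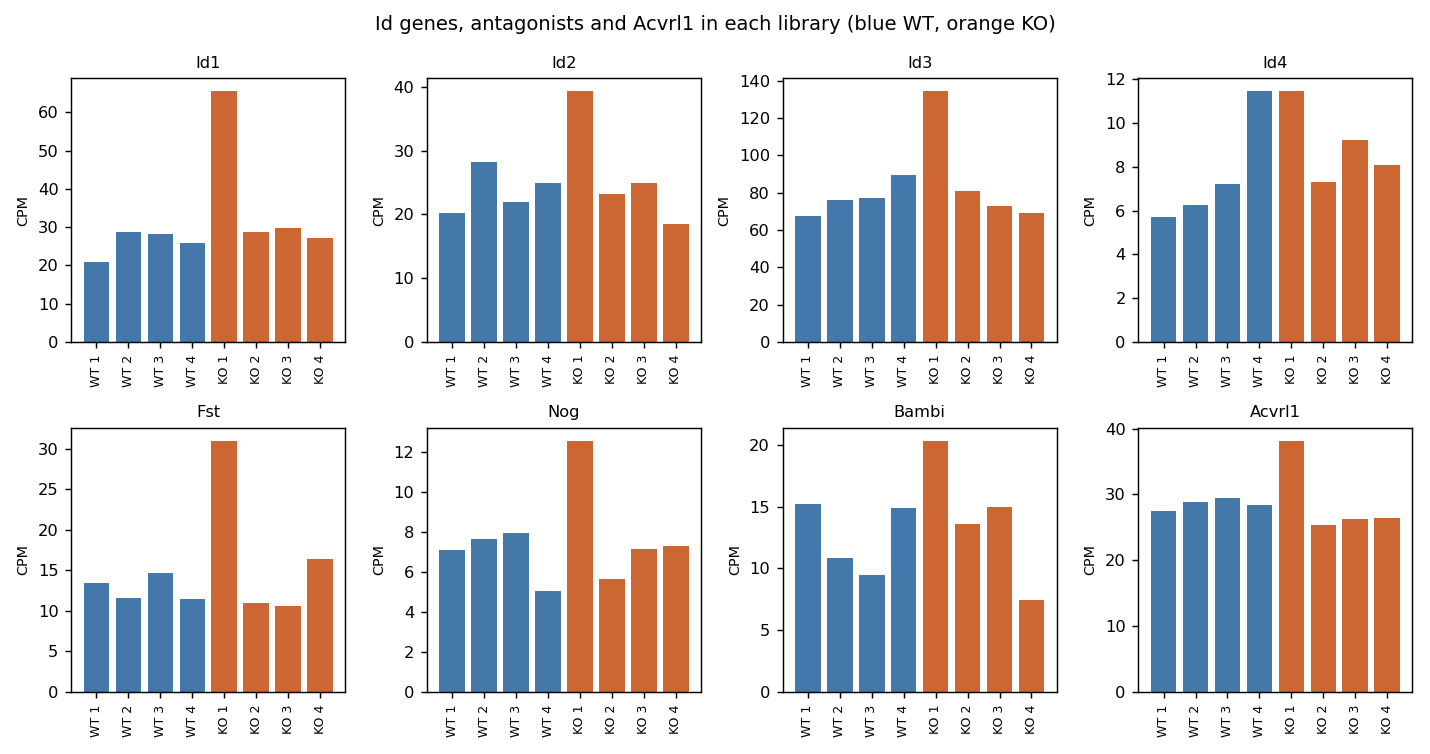
Levels in CPM (vertical axis, a scale per panel) of the Id genes, the antagonist genes Fst, Nog and Bambi, and Acvrl1 in each of the 8 libraries, blue for WT and orange for KO. KO 1 is the tallest bar in every panel (joint tallest with WT 4 for Id4), with Id1 at 65.6 CPM against at most 29.8 CPM elsewhere.

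Other single libraries stood at the ends of many members. WT replicate 1 was the highest library in 20 of 50 members, 40% against 13.3% of all genes, and it also had the highest osteoblast marker share, 1.28% of counts. WT replicate 4 was the lowest in 15 members, 30% against 21.2% of all genes. The opposite ends were held by WT replicate 4 and KO replicate 4 together in several members: Tgfb2, Tgfb3, Acvr1 and Acvr2a had WT replicate 4 lowest and KO replicate 4 highest (8% against 10.7% of all genes), and Tgfb1, Grem1 and Ltbp1 had the reverse (6% against 11.1%). The part of cell composition in these orders was not tested.

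The other genes of the pathway, 50 that include further ligands, extracellular modulators, ubiquitin ligases and transcriptional partners, were compared in the same way. Of these, 47 passed the filter (Gdf5, Gdf6 and Gdf7 did not), 20 had a positive and 27 a negative fold change, and 0 were called, with a median log2 fold change of -0.06. An unadjusted p under 0.05 was reached by 1 higher and 2 lower genes, 6.38% against 18.2% of all genes. The smallest p values were those of Rnf111 and Hipk2. Rnf111, for the ubiquitin ligase Arkadia that degrades SMAD7, SKI and SKIL, was at 29.0, 27.9, 26.6 and 33.9 CPM in WT and 20.5, 21.5, 24.1 and 19.6 in KO. All KO libraries of Rnf111 were below all WT libraries, with a log2 fold change of -0.46 (SE 0.12, adjusted p = 0.0999). Hipk2, for a kinase that binds SMAD corepressors, had -0.83 (SE 0.30, adjusted p = 0.190), and its libraries overlapped.

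Lists of known transcriptional targets also had 0 called genes, while their shares with an unadjusted p under 0.05 were nearer to that of all genes. Of 16 BMP target genes, 14 passed the filter (Msx2 and Hamp did not), 4 had a positive and 10 a negative fold change, 0 were called, and the median was -0.17. The unadjusted p was under 0.05 in 2 genes, 14.3% against 18.2% of all genes, both lower in KO. Runx2, the transcription factor of osteoblast commitment, was at 51.9, 56.6, 41.9 and 50.8 CPM in WT and 41.7, 35.1, 40.2 and 32.7 in KO, with no overlap and a log2 fold change of -0.43 (SE 0.13, adjusted p = 0.130). Sp7, for osterix, which acts after Runx2, had -0.37 (SE 0.15, adjusted p = 0.242) with overlapping groups. Of 20 TGF-beta target genes, all passed the filter, 9 had a positive and 11 a negative fold change, 0 were called, and the median was -0.04. The unadjusted p was under 0.05 in 4 genes, 20% against 18.2% of all genes. Adam12, for a metalloprotease of mesenchymal cells, was at 27.6, 33.4, 26.4 and 24.8 CPM in WT and 16.3, 16.7, 19.6 and 14.1 in KO, with no overlap and a log2 fold change of -0.75 (SE 0.14, adjusted p = 0.0728). Fn1, for the matrix protein fibronectin, was at 262.2, 266.6, 196.7 and 247.7 CPM in WT and 185.3, 175.3, 140.0 and 148.5 in KO, with no overlap and -0.58 (SE 0.15, adjusted p = 0.102). The other 2 with an unadjusted p under 0.05, Acta2 (0.42) and Tagln (0.64), encode smooth muscle contractile proteins, were chosen for mention after their values were seen, and had overlapping groups. Of the 6 smooth muscle and pericyte markers, 3 had a positive fold change, with a median of 0.05, and they summed to 1857 to 3279 CPM in WT and 3283 to 5230 in KO. Des, which skeletal muscle also expresses, made up 1520 to 2817 CPM of this in WT and 2863 to 4775 in KO, and the other 5 markers summed to 337 to 463 CPM and 337 to 455 CPM. Most of the latter was Rgs5, at 242 to 358 CPM in WT and 269 to 336 in KO. An unadjusted edgeR p under 0.05 was reached by 2 of the 6 markers, against 18.2% of all genes. Cnn1, at 0.587 to 2.56 CPM, had a log2 fold change of 1.14, and Notch3 had -0.44. The part of smooth muscle cells and pericytes in Acta2 and Tagln was not tested.

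Calls among the members appeared with DESeq2 and with 2 of the 3 marker scores as covariates, as given above. Limma-voom with sample quality weights called 4.04% of all genes and 0 members. Members with an unadjusted p under 0.05 in edgeR numbered 1 with all libraries. They numbered 3 without WT replicate 4 (Bmp5, Id4 and Ski, against 17.3% of all genes), 2 without KO replicate 2 (Bmp5 and Ltbp2, against 19.2%) and 2 without KO replicate 4 (Bmp5 and Id1, against 16.8%). Members whose groups did not overlap numbered 1 with all libraries. Of the 50 members they made up 4% without WT replicate 2 (against 15.2% of all genes), 6% without WT replicate 3 (17.7%), 8% without WT replicate 4 (18.5%), 4% without KO replicate 1 (15.8%), 6% without KO replicate 2 (20.3%) and 6% without KO replicate 4 (17.4%). In each of these settings the share of members was below that of all genes.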

How the data were processed

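RNA from femoral shaft bone of 4 WT and 4 KO mice was sequenced, 1 library per mouse. The values the authors deposited are raw counts, whole numbers for each Ensembl ID. The submitters' processing notes list STAR 2.5.2b, featureCounts (Subread 1.5.2) and bcl2fastq 2.17, and the build mm10. Strand use and the handling of multi-mapping reads are not stated there, so reads of antisense, overlapping or near-identical genes cannot be told apart. Of 49315 IDs, 48970 matched GENCODE M21. Groups and replicate numbers came from the sample titles. Every pair of libraries differed by a chi-square of at least 39.4 per degree of freedom over genes with at least 100 counts, so none was a repeat.

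The comparison used edgeR 4.0.16 in R 4.3.3 (quasi-likelihood test, robust dispersion, TMM, filterByExpr, group as the only term), with Benjamini-Hochberg adjustment over 17450 genes, a threshold of 0.05 and two-sided p. The SE is the log2 fold change divided by the root of its F statistic, and intervals cover 95%. CPM uses TMM-scaled library sizes, and CPM per kb divides by the exon union. Alternatives were DESeq2 1.42.0, limma-voom (limma 3.58.1), other normalizations and filters, a newer quasi-likelihood method, a replicate block, muscle, marrow or endothelial marker scores as covariates, loess offsets (span 0.3) that remove the trend with exon length and GC content, a threshold of 0.10, and libraries left out. The marker scores use a prior count of 2. The pipeline was tested on simulated data. The members, gene lists and settings were chosen with earlier results of these data known.

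Genes given in every library are the most abundant member per kb of each role and those with an unadjusted p under 0.05. Up to 2 genes per other list, those with the smallest p, are named, and further genes were chosen after their values were seen. Promoter windows (250 bases before to 50 after each start) were found by symbol in the RefSeq table of GRCm38.p6 for 36 of 50 members. Fst, Smad4, Tgfb3, Bmp2, Tgfbr3, Bambi, Acvrl1, Bmp7, Bmp3, Smad2, Smad7, Nog, Id1 and Skil had no entry.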

Additional observations from a re-analysis of the deposited data

Results flagged for a closer look

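In 6 of 100 groups of 4 libraries (50 genes in each genotype), 1 library lay far from the others, with a gap, relative to the range of the group, above Dixon's 95% critical value. Chance gives about 1 in 20 such groups, which is near the share found. All groups come from the same 8 libraries, so they are not independent. Acvrl1, the ALK1 receptor gene, was at 38.2 CPM in KO replicate 1 and 25.4 to 26.4 CPM in the other KO libraries. Id1, the BMP target gene, was at 65.6 CPM in the same library and 27.1 to 29.8 CPM in the others. Tgfb2 was at 23.3 CPM in WT replicate 4, against 37.2 to 39.1 CPM in the other WT libraries. Smad3 was at 55.8 CPM in WT replicate 4, against 91.0 to 96.2 CPM. Tgfb3 was at 94.8 CPM in KO replicate 4, against 56.5 to 61.0 CPM. Smad9 was at 4.31 CPM in WT replicate 1, against 2.21 to 2.44 CPM.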

How the results depend on the processing

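The members called numbered 0 in the analysis reported, 1 with DESeq2, 1 with the marrow score and 3 with the muscle score as a covariate, and 0 in every other setting, leave-one-out fits included. The members with an unadjusted p under 0.05 numbered 1, against 4 with limma-voom (22.8% of all genes), 3 with library totals (16.1%), 13 with the muscle score (26.6%), 3 with the marrow score (26.4%), 2 with the endothelial score (16.6%), 8 without both replicates 4 (23.7%), and 1 to 3 with 1 library left out (13.7% to 19.2%). Of all genes, 2 were called, against 992 with DESeq2, 705 with limma-voom, 71 without a low-count filter, 1292 with the muscle score, 1328 with the marrow score, 458 without both replicates 4, 493 at a threshold of 0.10, and 2 to 4 with 1 library left out. Members whose groups did not overlap numbered 1 (13.1% of all genes), against 4 with library totals (11.5%), 13 without both replicates 4 (30.2%) and 1 to 4 with 1 library left out (15.2% to 20.3%). The causes of these changes were not tested.

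Same-numbered WT and KO libraries did not deviate together (correlations of -0.187, -0.166, -0.247 and -0.568 for replicates 1 to 4). These correlations cannot show whether same-numbered mice were related or processed together, and the labels state no pairing. The replicate block called 1 gene, 0 members, and left 1 member with an unadjusted p under 0.05.

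Library totals moved the median log2 fold change of all genes to -0.11. Of the 50 members, 15 had log2 fold changes on the same side of 0 in all alternatives, Bmp5 among them, and in 35 the values crossed 0. The latter include Bmp2, Bmp4 and Acvr1b, whose fold changes of 0.00 have no sign to reverse. With limma-voom, the sign reversed for Bmp6 (0.01), Tgfb2 (-0.22), Bmpr1a (-0.06), Bmpr2 (-0.14), Acvr1 (-0.06), Acvrl1 (-0.07), Smad1 (-0.05), Smad3 (-0.04) and Nog (-0.04). With the length and GC trend removed, the sign reversed for Bmp6 (0.04), Inhba (0.01), Tgfbr1 (0.04), Tgfbr2 (0.06), Smad5 (0.07), Smad6 (0.03), Chrd (0.04), Ltbp3 (0.17) and Ltbp4 (0.06). With the endothelial score as a covariate, the sign reversed for Bmp7 (0.22), Tgfb2 (-0.16), Inhba (0.15), Bmpr1a (-0.05), Bmpr2 (-0.07), Acvr1 (-0.03), Tgfbr3 (-0.04) and Smad1 (-0.03). With library totals in place of TMM, the sign reversed for Tgfb1 (-0.07), Tgfb2 (-0.07), Bmpr1a (-0.04), Bmpr2 (-0.06), Acvr1 (-0.04), Acvrl1 (-0.07), Tgfbr3 (-0.06), Smad1 (-0.08), Smad3 (-0.06), Tgfbi (-0.02) and Ltbp1 (-0.04). With the muscle score as a covariate, the sign reversed for Tgfb2 (-0.31), Inhba (0.23), Bmpr1a (-0.32), Bmpr1b (-0.14), Bmpr2 (-0.32), Acvr1 (-0.22), Acvr2b (-0.08), Tgfbr3 (-0.12), Smad1 (-0.06), Smad3 (-0.20) and Smad4 (-0.11). With both replicates 4 left out, the sign reversed for Tgfb2 (-0.28), Inhba (0.15), Bmpr1a (-0.25), Bmpr1b (-0.05), Bmpr2 (-0.26), Acvr1 (-0.19), Acvr2b (-0.01), Tgfbr3 (-0.09), Smad1 (-0.05), Smad3 (-0.15) and Smad4 (-0.08). With 1 library left out in turn, the ranges that crossed 0 were Bmp6 -0.15 to 0.10, Bmp7 -0.55 to 0.01, Tgfb1 -0.10 to 0.29, Tgfb2 -0.13 to 0.12, Tgfb3 -0.25 to 0.04, Inhba -0.22 to 0.11, Gdf15 -0.06 to 0.47, Bmpr1a -0.14 to 0.22, Bmpr2 -0.17 to 0.18, Acvr1 -0.07 to 0.20, Acvr2a -0.27 to 0.04, Acvrl1 -0.13 to 0.08, Tgfbr1 -0.08 to 0.05, Tgfbr3 -0.03 to 0.11, Smad1 -0.03 to 0.05, Smad3 -0.13 to 0.10, Smad4 -0.04 to 0.18, Smad5 -0.09 to 0.04, Smad6 -0.11 to 0.09, Id2 -0.10 to 0.30, Id3 -0.06 to 0.31, Tgfbi -0.11 to 0.21, Nog -0.06 to 0.37, Fst -0.02 to 0.60, Bambi -0.07 to 0.38, Ltbp1 -0.05 to 0.19, Bmp2 -0.09 to 0.08, Bmp4 -0.11 to 0.11 and Acvr1b -0.21 to 0.17. In each case the cause was not tested. Gdf15, Bmp7, Bmpr1b and Smad9 had the lowest mean CPM of the members.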
